A study of Zea mays with 9 samples.

Results

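The comparison set root apices of maize that had received nitrate together with a scavenger of nitric oxide (NO) against apices that had received no nitrogen, and asked which transcript levels differed from the unfed state when nitrate was present and NO was being removed. A gene entered when its RPKM, the read count scaled to transcript length and library size, was at least 1 in one of the 2 conditions, and 21312 of the 45260 genes in the deposited table did. All material came from seedlings of the inbred line B73, which were kept without nitrogen for 24 h and then moved for 24 h to a solution without nitrogen (−N), with 1 mM nitrate (+NO3-) or with 1 mM nitrate and 1 mM cPTIO (+NO3- + cPTIO). RNA from pooled seedlings gave 3 libraries per condition in the labels, whereas the study's methods state that one +NO3- + cPTIO library was not kept after filtering. The deposited table holds 1 value per gene and condition, so there is no replicate check here, and every ratio below compares these libraries rather than being tested against a spread. The study itself tested these 2 conditions against each other with its replicates, and the results of that test were not used. The −N and +NO3- libraries carry labels of a re-analysis and the +NO3- + cPTIO libraries do not. An earlier submission and the absence of cPTIO therefore cannot be told apart. Nitrate and cPTIO both differed between the 2 conditions, and their parts in a difference cannot be told apart either. The value in +NO3- is therefore given beside the genes described in most detail, although the ratio of +NO3- to −N and the ratio of +NO3- + cPTIO to −N share the −N value. A value given for a gene and condition is its RPKM as the authors computed it.

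Nitrate taken up by a root is reduced to nitrite by nitrate reductase and then to ammonium by nitrite reductase, a plastid enzyme that carries siroheme and draws electrons from ferredoxin. Nitrate reductase can also pass electrons to nitrite and so form NO, a short-lived signal in root growth that plant haemoglobins oxidise back to nitrate. The compound cPTIO is a stable organic radical that reacts with NO and takes it out of solution. The root apex contains the root cap, the meristem and the elongating cells, and root hairs arise from epidermal cells further back.

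Most genes kept their level within a factor of 2 of the unfed state. Of the 21312 genes, 1775 (8.33%) were higher and 1962 (9.21%) were lower in +NO3- + cPTIO than in −N, which makes 3737 (17.5%) past 2-fold in either direction, and 17575 stayed within the limit. Among the genes above 0 in both conditions, 1693 exceeded 2-fold upward and 1860 downward. The others past the limit were 82 genes listed at 0 in −N and 102 listed at 0 in +NO3- + cPTIO, for which no ratio exists. The 988 genes below 1 RPKM in −N entered only through +NO3- + cPTIO and could not have counted as lower. The 1058 genes below 1 RPKM in +NO3- + cPTIO could likewise not have counted as higher. Both limits apply to all counts of higher and lower genes below. The log2 ratio of +NO3- + cPTIO to −N had a median of −0.03 over the 21128 genes above 0 in both, with quartiles of −0.43 and 0.33, and its central 95% reached from −1.87 to 2.18. The upper tail was therefore longer than the lower one. Beyond 4-fold there were 624 higher and 453 lower genes, beyond 8-fold 267 and 168, and beyond 32-fold 55 and 47. Zm00001d022636 lay just inside the upper limit with a log2 ratio of 1.0001 and Zm00001d030561 just outside it with 0.999. On the lower side the nearest genes were Zm00001d025435, with 1.70 RPKM in −N and 0.848 in +NO3- + cPTIO, and Zm00001d009600, with 9.63 and 4.82.

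**Figure D1:**
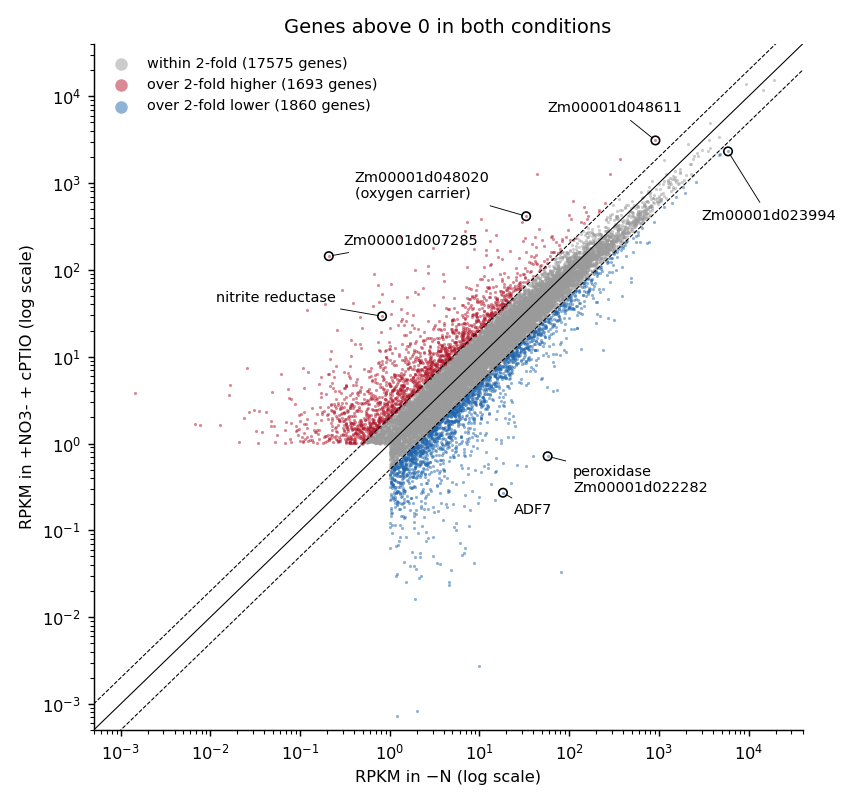
Each point is a gene above 0 in both conditions, with its RPKM in −N on the horizontal axis and in +NO3- + cPTIO on the vertical axis, both on log scales. The solid line marks equal values and the dashed lines a 2-fold difference, and circled genes are described in the text. The 1693 red genes and 1860 blue genes lie outside the dashed lines, and beyond 8-fold there are 267 genes on the upper and 168 on the lower side.

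In the genes that were higher, the median RPKM was 1.69 in −N, 2.61 in +NO3- and 6.76 in +NO3- + cPTIO. The genes that were lower had medians of 6.45, 5.88 and 1.97 in the same order, and those within the limit had 13.7, 13.99 and 13.7. Taken as log2 ratios to −N over the genes above 0 in all conditions, the higher genes had a median of 1.67 in +NO3- + cPTIO and of 0.45 in +NO3-, and the lower genes −1.46 and −0.13. These medians describe genes that had been picked on one of the 2 ratios.

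The share of genes past 2-fold depended on the level. Genes whose larger value was between 1 and 2 RPKM were higher in 16.9% and lower in 19.0% of cases, and those between 10 and 50 RPKM in 5.83% and 5.71%. At the top the balance shifted downward. Among the 1652 genes from 100 to 1000 RPKM, 85 were higher and 147 lower, with a median log2 ratio of −0.35, and of the 77 genes from 1000 RPKM, 4 were higher and 9 lower, with a median of −0.46. Of the 100 genes with the largest RPKM in −N, 93 had a smaller value in +NO3- + cPTIO, 10 of them by more than 2-fold, and 7 a larger one, 1 of them by more than 2-fold. Of the 100 with the largest RPKM in +NO3- + cPTIO, 81 had a smaller value there than in −N, and 7 were lower and 5 higher by more than 2-fold. A pick by the −N value favours genes that are lower in the other condition, and the reverse pick favours the opposite. The RPKM of all genes summed to 885720 in −N, 915808 in +NO3- and 773454 in +NO3- + cPTIO.

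Locus length went along with the ratio as well. Of the 820 genes with a locus under 500 bp, 19.0% were higher and 30.5% lower, while of the 2909 genes with a locus of at least 10000 bp, 4.71% were higher and 2.06% lower. The median length was 1995 bp in the lower genes, 2561 bp in the higher genes and 4303 bp in the rest. The median log2 ratio over genes above 0 in all conditions moved from −0.42 in the shortest class to 0.13 in the longest. The ratio of +NO3- to −N ran the other way over the same genes, from 0.49 to −0.01. The order by length was also present among genes with at least 10 RPKM in one condition, where 42.0% of the shortest and 3.84% of the longest class were past 2-fold. The part of transcript length or library preparation in the single ratios was not tested.

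**Figure D2:**
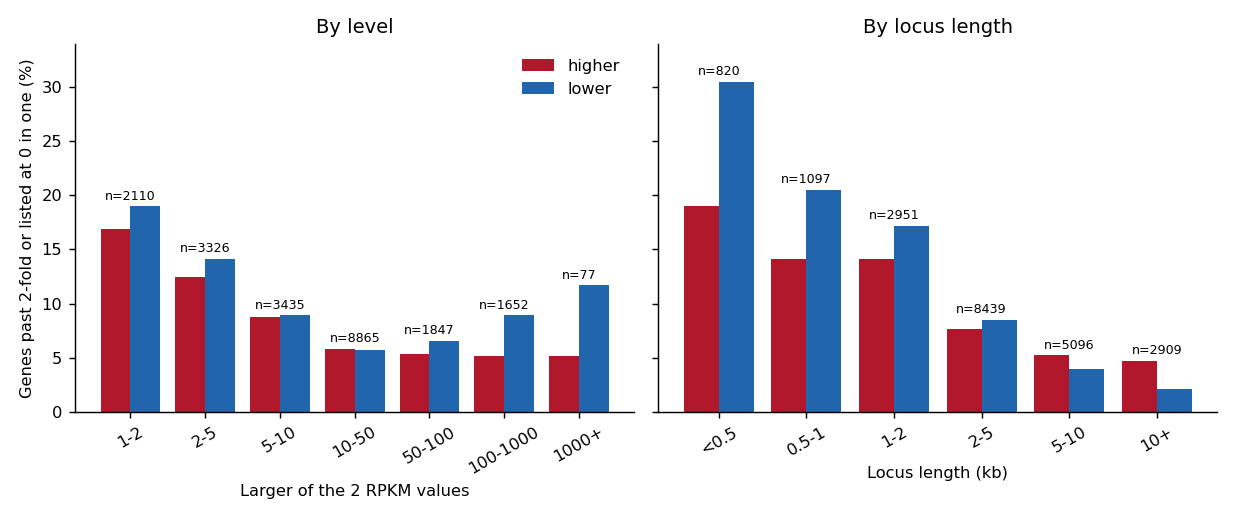
Bars give the percentage of genes that were higher (red) or lower (blue) in +NO3- + cPTIO than in −N by more than 2-fold or through a value of 0 in one, by the larger of the 2 RPKM values (left) and by locus length in kb (right), with the number of genes above each pair. Both shares are largest in the lowest level class (16.9% and 19.0%), and in the shortest loci lower genes (30.5%) outnumber higher ones (19.0%).

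The most extreme increases were in genes that were almost silent in −N. Zm00001d007285 (chromosome 2, 226813482 to 226814994) was at 0.209 in −N, 0.305 in +NO3- and 144 in +NO3- + cPTIO, in RPKM, a 688-fold difference from −N and a log2 ratio of 9.43. Zm00001d051251 (chromosome 4, 150629030 to 150631205) read 1.31 in −N, 1.101 in +NO3- and 237 in +NO3- + cPTIO, which is 181-fold. In Zm00001d021168 the values were 0.662 in −N, 0.242 in +NO3- and 90.6 in +NO3- + cPTIO (137-fold), and in Zm00001d020134 they were 1.02 in −N, 1.04 in +NO3- and 69.4 in +NO3- + cPTIO (67.7-fold). These 4 genes were at or below 1.31 RPKM in −N and +NO3- alike and stood far above that where cPTIO was present. The condition with cPTIO was also the only one without the re-analysis label. Zm00001d033583 (294-fold), Zm00001d018220 (211-fold), Zm00001d048416 (199.8-fold), Zm00001d006947 (107-fold), Zm00001d044156 (91.2-fold) and Zm00001d024802 (78.1-fold) completed the 10 highest ratios among genes with at least 10 RPKM in one condition. Zm00001d024802 stood furthest above −N with nitrate alone among the 10, at 0.257 in −N, 5.801 in +NO3- and 20.1 in +NO3- + cPTIO. The table does not name these genes. With so little RPKM in −N the size of such a ratio is loosely fixed, and with 1 added to both values the log2 ratio of Zm00001d007285 was 6.91.

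In absolute terms most of the largest increases were in genes that were already abundant. Zm00001d048611 (chromosome 4, 1283711 to 1284484) had 915 in −N, 517 in +NO3- and 3098 in +NO3- + cPTIO, a 3.39-fold difference. Zm00001d028693 (chromosome 1, 43343007 to 43345059) went from 43.4 RPKM in −N, with 49.1 in +NO3-, to 1280.3 in +NO3- + cPTIO, a 29.5-fold difference that placed a moderately expressed gene among the abundant ones. The non-coding RNA gene annotated enod40 (ENSRNA049469775), named after a legume nodulation transcript, had 373 in −N, 580.5 in +NO3- and 1882 in +NO3- + cPTIO, or 5.05-fold. Increases past 2-fold were also seen in Zm00001d024778 (4.44-fold, to 1266 RPKM), Zm00001d024839 (5.55-fold, to 615 RPKM) and Zm00001d042869 (3.62-fold, to 535 RPKM). The other 4 of the 10 largest increases stayed within 2-fold. They were a large-subunit ribosomal RNA fragment (ENSRNA049478221, 1.504-fold), Zm00001d012675 (1.33-fold), Zm00001d035156 (1.33-fold) and Zm00001d045042 (1.598-fold).

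Among genes with at least 10 RPKM in one condition, the lowest ratio belonged to a microRNA gene and has to be read with its neighbour. ENSRNA049463648, annotated MIR171_1, was listed at 80.1 in −N, 26.1 in +NO3- and 0.0335 in +NO3- + cPTIO, a log2 ratio of −11.23. The table gives the same locus (chromosome 5, 8896282 to 8896437) to zma-MIR171f, with 133 in −N, 74.3 in +NO3- and 74.7 in +NO3- + cPTIO. Summed over both identifiers the locus had 213 RPKM in −N, 100.4 in +NO3- and 74.8 in +NO3- + cPTIO, a log2 ratio of −1.51. The extreme ratio thus held for one identifier and not for their sum. Such overlaps concerned 2288 of the genes examined, which share their locus with another identifier.

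The other 9 of the 10 lowest ratios above this minimum, which leaves out lower ratios at smaller RPKM such as that of Zm00001d047358 (209-fold lower), had Zm00001d identifiers. Zm00001d022282 (chromosome 7, 174371832 to 174373313), a gene of the study's peroxidase lists, had 57.5 in −N, 22.3 in +NO3- and 0.713 in +NO3- + cPTIO, 80.6-fold below −N. Zm00001d051388, actin depolymerizing factor 7, had 18.3 in −N, 6.61 in +NO3- and 0.271 in +NO3- + cPTIO (67.4-fold). Zm00001d027700 (66.1-fold lower), Zm00001d029816 (64.3-fold), Zm00001d053320 (60.3-fold), Zm00001d018744 (55.8-fold), Zm00001d008587 (45.9-fold), Zm00001d045571 (38.8-fold) and Zm00001d027291 (31.5-fold) made up the rest of the 10. The 9 had between 13.3 and 57.5 RPKM in −N and less than 1 in +NO3- + cPTIO. In 8 of them the value in +NO3- lay between both, as in Zm00001d053320 with 33.3 in −N, 14.5 in +NO3- and 0.552 in +NO3- + cPTIO. Zm00001d027291 differed in having its highest value with nitrate alone, at 14.8 in −N, 31.9 in +NO3- and 0.471 in +NO3- + cPTIO.

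The largest decreases in RPKM affected very abundant transcripts. Zm00001d023994 (chromosome 10, 35174830 to 35179918) had 5898 in −N, 2945 in +NO3- and 2316 in +NO3- + cPTIO, a 2.55-fold decrease, and its value in +NO3- was already near that in +NO3- + cPTIO. Zm00001d033850 showed 4804 in −N, 4696 in +NO3- and 2137 in +NO3- + cPTIO (2.25-fold lower), so that here nitrate alone left the level close to −N. Zm00001d040508 (4677 to 2106 RPKM, 2.22-fold), Zm00001d002690 (2591 to 1019 RPKM, 2.54-fold) and Zm00001d047117 (1930.2 to 773 RPKM, 2.497-fold) were past 2-fold too. Zm00001d007011, Zm00001d045431 and the ribosomal RNA fragments ENSRNA049478226, ENSRNA049478207 and ENSRNA049455955 lost much RPKM but were within 2-fold, at 1.47, 1.502, 1.26, 1.21 and 1.37-fold lower.

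Genes listed at 0 in one condition were mostly small non-coding RNAs. The largest values opposite a 0 in −N were those of the small nucleolar RNAs ENSRNA049458448 (64.7 RPKM in +NO3- + cPTIO), ENSRNA049458426 (48.7), ENSRNA049458495 (48.2) and ENSRNA049468588 (46.3) and of the U6 RNA ENSRNA049470306 (43.4). The largest values opposite a 0 in +NO3- + cPTIO were those of ENSRNA049456692 (47.1 RPKM in −N), ENSRNA049463761 (36.4), ENSRNA049461441 (29.9) and ENSRNA049475525 (29.5), again small nucleolar RNAs, and of Zm00001d028956 (27.5). ENSRNA049458426 and ENSRNA049458495 share 1 locus with Zm00001d014969, and over the 3 identifiers that locus summed to 352 RPKM in −N and 317 in +NO3- + cPTIO, a log2 ratio of −0.15. Zm00001d028956 shares its locus with Zm00001d028955, and the pair summed to 50.8 RPKM in −N and 15.0 in +NO3- + cPTIO. Of the 184 genes listed at 0 in one condition, 74 had a Zm00001d identifier.

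Gene groups were taken from the ontology and pathway tables of the study, which are set out by cluster. The clusters hold genes responsive to nitrate, grouped by their values in all 3 conditions, that in +NO3- + cPTIO included. The direction of a listed gene and the order of its 3 values are thus largely fixed by that choice, and what follows describes the members and is no independent evidence. Of 103 listed genes that entered the comparison, 37 were higher and 30 lower in +NO3- + cPTIO, against 8.33% and 9.21% of all genes.

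Genes of nitrate reduction were above the unfed state with cPTIO present. Nitrite reductase (Zm00001d018161, chromosome 5, 215727083 to 215730071) had 0.8203 in −N, 16.3 in +NO3- and 29.3 in +NO3- + cPTIO, a 35.7-fold difference from −N. The nitrate reductase gene Zm00001d018206 had 1.44 in −N, 4.06 in +NO3- and 4.66 in +NO3- + cPTIO (3.23-fold), and Zm00001d049995 had 0.291 in −N, 1.77 in +NO3- and 2.23 in +NO3- + cPTIO (7.67-fold). All 3 were thus highest in +NO3- + cPTIO and lowest in −N. Both listed genes of siroheme synthesis, which supplies the cofactor of nitrite reductase, followed the same order, by which their cluster had been chosen. The uroporphyrinogen methyltransferase gene Zm00001d044138 had 8.14 in −N, 24.98 in +NO3- and 39.3 in +NO3- + cPTIO (4.83-fold) and Zm00001d011428 had 0.919 in −N, 2.35 in +NO3- and 3.84 in +NO3- + cPTIO (4.18-fold). Nitrite reductase, Zm00001d049995 and Zm00001d011428 were below 1 RPKM in −N. They entered only through +NO3- + cPTIO and could not have counted as lower. A carbonic anhydrase gene (Zm00001d044096), whose product interconverts carbon dioxide and bicarbonate, had 3.78 in −N, 9.91 in +NO3- and 13.4 in +NO3- + cPTIO (3.53-fold).

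Transport of nitrogen behaved differently. The single listed nitrate transporter (Zm00001d011679) had 1.93 in −N, 0.385 in +NO3- and 0.0491 in +NO3- + cPTIO, 39.2-fold lower than in −N, from a level below 2 RPKM. Its log2 ratio of −5.29 became −1.48 with 1 added to both values. None of the 3 ammonium transport genes passed 2-fold. Zm00001d017249 had 2.81 in −N, 0.645 in +NO3- and 2.09 in +NO3- + cPTIO, Zm00001d025831 had 8.72 in −N, 3.91 in +NO3- and 7.26 in +NO3- + cPTIO and Zm00001d034782 had 8.57 in −N, 2.95 in +NO3- and 13.9 in +NO3- + cPTIO. The list belongs to a cluster chosen for low values in +NO3- and values near −N with cPTIO, so this order was fixed by the choice.

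The listed oxygen carrier and class III alcohol dehydrogenase genes were above −N. The 2 genes with the ontology term oxygen carrier, which covers the plant haemoglobins, were Zm00001d048020 (chromosome 9, 148178265 to 148179408) with 33.1 in −N, 301 in +NO3- and 415 in +NO3- + cPTIO, 12.5-fold, and Zm00001d038718 with 0.313 in −N, 5.72 in +NO3- and 4.36 in +NO3- + cPTIO, 13.9-fold. The first of them was the more abundant in every condition and was highest with cPTIO, the second was highest in +NO3-. The second was below 1 RPKM in −N and entered only through +NO3- + cPTIO, so it could not have counted as lower. A class III alcohol dehydrogenase gene (Zm00001d027995), an enzyme type that also reduces S-nitrosoglutathione, had 8.87 in −N, 3.76 in +NO3- and 17.9 in +NO3- + cPTIO. Its 2.02-fold difference sat at the limit. The log2 ratio dropped to 0.96 when the conditions were rescaled to the same upper quartile and to 0.94 with 1 added to both values.

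**Figure D3:**
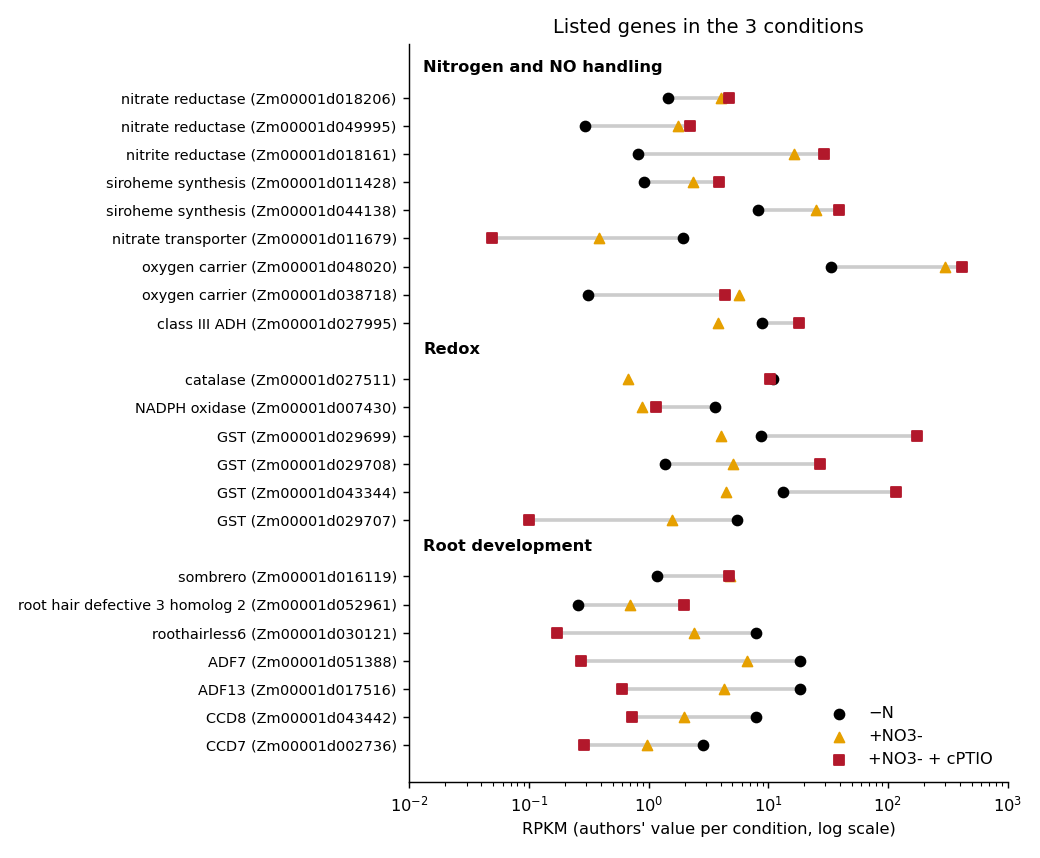
RPKM of single listed genes (log scale) in −N (black circles), +NO3- (orange triangles) and +NO3- + cPTIO (red squares), with a grey line joining −N and +NO3- + cPTIO. ADH is alcohol dehydrogenase, GST glutathione S-transferase, ADF actin depolymerizing factor and CCD carotenoid cleavage dioxygenase. Nitrite reductase lies at 0.820, 16.3 and 29.3 RPKM, whereas catalase is at 11.0, 0.675 and 10.4, so that only +NO3- stands apart for the latter.

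Peroxidases made up the largest group, and most of its members were below −N. These enzymes use hydrogen peroxide to oxidise phenols in the cell wall, and the list also holds a catalase, an NADPH oxidase and an alpha-dioxygenase gene. For long terms the ontology table was at hand in part, so the list may lack members. Of 26 genes with the term peroxidase activity, all of which entered the comparison, 15 were lower and 2 higher by more than 2-fold, and the group had a median log2 ratio of −1.26 over the members above 0 in both conditions, against −0.03 for all genes. Summed over the group, the RPKM was 1421 in −N, 590.5 in +NO3- and 584 in +NO3- + cPTIO. Most of it came from Zm00001d040364, with 889.5 in −N, 425 in +NO3- and 355 in +NO3- + cPTIO. Zm00001d038598 had 137 in −N, 55.4 in +NO3- and 36.2 in +NO3- + cPTIO, and Zm00001d022283 had 62.7 in −N, 6.84 in +NO3- and 18.4 in +NO3- + cPTIO. Beyond 8-fold lower were Zm00001d047358 (8.68 to 0.0416 RPKM), Zm00001d022282 and Zm00001d022281 described with their neighbours below, Zm00001d024740 (6.37 to 0.525) and Zm00001d022284. Zm00001d016177 and Zm00001d022279 were listed at 0 in +NO3- + cPTIO after 13.04 and 12.1 RPKM in −N. The 2 higher members were Zm00001d022290 (2.54 in −N, 0.717 in +NO3- and 6.44 in +NO3- + cPTIO) and Zm00001d037359 (2.58 in −N, 0.4901 in +NO3- and 5.36 in +NO3- + cPTIO), of which the latter had a log2 ratio of 0.83 once 1 was added to both values. The list of peroxidases by KEGG ortholog shares 21 genes with this one. Its 6 further genes all had more RPKM in +NO3- than in −N, and 4 were above −N by more than 2-fold, for example Zm00001d002898 (25.6 in −N, 92.4 in +NO3- and 76.2 in +NO3- + cPTIO) and Zm00001d032854 (1.98 in −N, 7.68 in +NO3- and 15.2 in +NO3- + cPTIO). These 6 belong to clusters raised by nitrate, so their direction too was largely set by the choice.

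**Figure D4:**
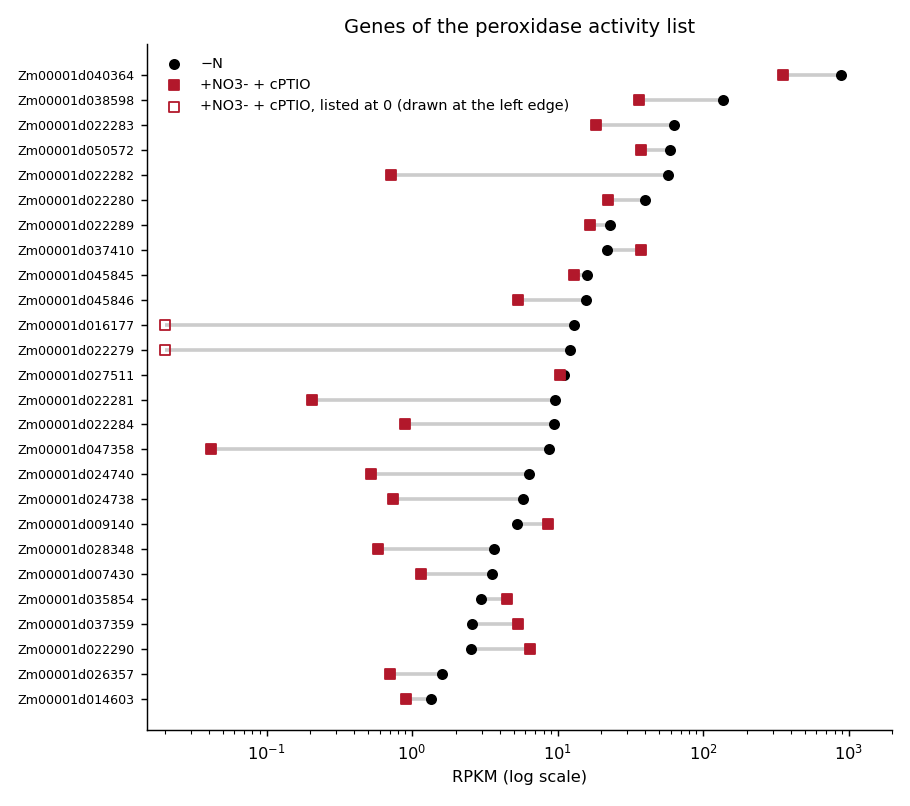
RPKM (log scale) of the 26 genes with the term peroxidase activity in −N (black circles) and +NO3- + cPTIO (red squares), ordered by their value in −N, with open squares at the left edge for 2 genes listed at 0 in +NO3- + cPTIO. Red squares lie left of the black circle in 21 genes and right of it in 5.

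Other enzymes of reactive oxygen divided. The catalase gene Zm00001d027511, whose product breaks down hydrogen peroxide, had 11.04 in −N, 0.675 in +NO3- and 10.4 in +NO3- + cPTIO, practically the unfed level beside a much smaller value with nitrate alone. An NADPH oxidase gene (Zm00001d007430), which makes superoxide, had 3.56 in −N, 0.877 in +NO3- and 1.14 in +NO3- + cPTIO, 3.11-fold below −N. All 4 glutathione S-transferase genes, whose products couple glutathione to reactive compounds, were past 2-fold. Zm00001d029699 had 8.65 in −N, 3.98 in +NO3- and 176 in +NO3- + cPTIO (20.3-fold), Zm00001d043344 had 13.3 in −N, 4.46 in +NO3- and 117 in +NO3- + cPTIO (8.75-fold) and Zm00001d029708 had 1.38 in −N, 5.08 in +NO3- and 26.8 in +NO3- + cPTIO (19.5-fold), while Zm00001d029707 had 5.49 in −N, 1.56 in +NO3- and 0.1003 in +NO3- + cPTIO (54.7-fold lower). Summed, the 4 genes reached 319.7 RPKM in +NO3- + cPTIO, against 28.9 in −N and 15.1 in +NO3-. The 3 on chromosome 1 lie within 353167 bp of each other, and 2 of them differed from −N upward and the one between them downward.

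Genes with a role in the root tip and in root hairs did not move together. The root cap regulator sombrero (Zm00001d016119), a NAC factor known from Arabidopsis, had 1.17 in −N, 4.77 in +NO3- and 4.65 in +NO3- + cPTIO (3.96-fold higher), whereas its relative bearskin 2 (Zm00001d003583) had 1.77 in −N, 0.207 in +NO3- and 1.19 in +NO3- + cPTIO and the root cap-specific protein (Zm00001d045420) 44.7 in −N, 6.04 in +NO3- and 23.02 in +NO3- + cPTIO, both within 2-fold. All 3 root cap markers were thus detected in both conditions. Of the root hair genes, roothairless6 (Zm00001d030121) had 7.902 in −N, 2.39 in +NO3- and 0.1699 in +NO3- + cPTIO (46.5-fold lower) and the root hair defective 3 homolog 2 (Zm00001d052961) 0.259 in −N, 0.698 in +NO3- and 1.98 in +NO3- + cPTIO (7.64-fold higher). In such bulk samples, fewer cells of a type and less RNA per cell cannot be told apart. The actin depolymerizing factors, which sever actin filaments, were both far below −N. ADF7 has been given above and ADF13 (Zm00001d017516) had 18.3 in −N, 4.27 in +NO3- and 0.598 in +NO3- + cPTIO (30.6-fold lower). The actin regulator scar2 (Zm00001d028803) had 1.04 in −N, 0.436 in +NO3- and 0.548 in +NO3- + cPTIO, within 2-fold.

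Both genes of strigolactone synthesis were below the unfed state. Strigolactones are carotenoid-derived hormones that roots make and exude when nutrients are scarce. Carotenoid cleavage dioxygenase 8 (Zm00001d043442, chromosome 3, 200059007 to 200062529) had 7.94 in −N, 1.98 in +NO3- and 0.7298 in +NO3- + cPTIO (10.9-fold lower), and carotenoid cleavage dioxygenase 7 (Zm00001d002736, chromosome 2, 20731282 to 20734451) had 2.85 in −N, 0.976 in +NO3- and 0.286 in +NO3- + cPTIO (9.97-fold lower). In each the value with nitrate alone lay between the others, an order by which their cluster had been chosen. Both were below 1 RPKM in +NO3- + cPTIO, so they could not have counted as higher. The scarecrow-like protein 26 gene (Zm00001d053163) with 2.24 in −N, 0.908 in +NO3- and 0.183 in +NO3- + cPTIO and the cyclops gene (Zm00001d035962), a regulator of root symbiosis in legumes, with 5.94 in −N, 2.73 in +NO3- and 2.51 in +NO3- + cPTIO were lower as well (12.3-fold and 2.37-fold). Apyrase 1 (Zm00001d049008), which splits nucleoside triphosphates, had 0.203 in −N, 0.744 in +NO3- and 2.62 in +NO3- + cPTIO (12.9-fold higher). Of the 17 genes that the study names by identifier, 16 entered the comparison, of which 4 were higher, 7 lower and 5 within 2-fold. The gene left out was auxin induced in roots 12 (Zm00001d031556), at 0.539 in −N, 2.898 in +NO3- and 0.531 in +NO3- + cPTIO. The reference gene of the study's PCR assays (Zm00001d018359) had 229 in −N, 230.4 in +NO3- and 200.1 in +NO3- + cPTIO.

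Hormone signalling genes differed from −N in both directions. Of 13 listed genes 12 entered the comparison, and 5 were higher and 3 lower. Both JAZ repressors of jasmonate signalling were higher, Zm00001d005813 with 0.322 in −N, 1.58 in +NO3- and 4.54 in +NO3- + cPTIO (14.1-fold) and Zm00001d027900 with 0.627 in −N, 2.24 in +NO3- and 5.22 in +NO3- + cPTIO (8.32-fold). The cytokinin response regulator of type B (Zm00001d042463) had 7.33 in −N, 14.9 in +NO3- and 32.6 in +NO3- + cPTIO (4.44-fold), the TGA factor Zm00001d026398 8.79 in −N, 19.6 in +NO3- and 47.01 in +NO3- + cPTIO (5.35-fold) and the PP2C phosphatase of abscisic acid signalling (Zm00001d028574) 0.3997 in −N, 1.37 in +NO3- and 1.85 in +NO3- + cPTIO (4.63-fold). Both JAZ genes and the PP2C gene were below 1 RPKM in −N and entered only through +NO3- + cPTIO, so they could not have counted as lower. The 3 lower genes belong to the auxin branch. They were an Aux/IAA repressor (Zm00001d034463, 11.5 in −N, 3.98 in +NO3- and 2.48 in +NO3- + cPTIO), a SAUR gene (Zm00001d026262, 7.74 in −N, 2.48 in +NO3- and 2.300 in +NO3- + cPTIO) and a GH3 gene (Zm00001d007395, 2.86 in −N, 0.579 in +NO3- and 0.468 in +NO3- + cPTIO), the last of a family that conjugates auxin. The GH3 gene was below 1 RPKM in +NO3- + cPTIO, so it could not have counted as higher. A second Aux/IAA gene (Zm00001d045203) was at 2.404 in −N, 5.63 in +NO3- and 2.05 in +NO3- + cPTIO and thus near −N. The 2 cytokinin dehydrogenase genes, which break the hormone down, stayed within 2-fold at log2 ratios of 0.88 and 0.75. Zm00001d042148 shares its locus with another identifier.

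Oxylipin and sugar genes were mixed. A lipoxygenase gene (Zm00001d041204), whose product starts the path to jasmonate, had 7.24 in −N, 20.01 in +NO3- and 24.4 in +NO3- + cPTIO (3.38-fold higher) and an oxophytodienoate reductase gene (Zm00001d037182), for a later step, 8.23 in −N, 1.94 in +NO3- and 22.8 in +NO3- + cPTIO (2.77-fold higher). The alpha-dioxygenase gene Zm00001d035854 had 2.97 in −N, 0.595 in +NO3- and 4.499 in +NO3- + cPTIO, within 2-fold. Of 3 trehalose phosphate phosphatase genes, Zm00001d022192 (3.22-fold) and Zm00001d006375 (4.17-fold) were higher and Zm00001d044854 was lower (3.97-fold), while the trehalose phosphate synthase gene Zm00001d050293 had 8.57 in −N, 19.7 in +NO3- and 9.497 in +NO3- + cPTIO. In fermentation, pyruvate decarboxylase (Zm00001d008651) was higher, at 4.900 in −N, 2.14 in +NO3- and 19.6 in +NO3- + cPTIO, and alcohol dehydrogenase (Zm00001d030348), the next enzyme, was lower, at 37.7 in −N, 16.9 in +NO3- and 7.69 in +NO3- + cPTIO.

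Cell wall and transport groups differed in direction, largely through the nitrate-responsive clusters from which their lists came. All 5 genes with the term polysaccharide binding that entered, of 6 listed, were higher by 2.95-fold to 14.96-fold, among them Zm00001d040094 (0.775 in −N, 1.72 in +NO3- and 11.6 in +NO3- + cPTIO) with the largest ratio and Zm00001d008488 (15.7 in −N, 33.2 in +NO3- and 46.5 in +NO3- + cPTIO) with the largest RPKM. All of the 5 except Zm00001d008488 were below 1 RPKM in −N and entered only through +NO3- + cPTIO, so they could not have counted as lower. Of the 3 fucosyltransferase genes, which decorate cell wall polymers, Zm00001d025547 (4.61 in −N, 1.15 in +NO3- and 1.29 in +NO3- + cPTIO) and Zm00001d007973 (1.37 in −N, 0.372 in +NO3- and 0.6196 in +NO3- + cPTIO) were lower and Zm00001d018716 was within 2-fold, and with 1 added to both values Zm00001d007973 had a log2 ratio of −0.55. For lignin precursors, both cinnamoyl-CoA reductase genes were lower, Zm00001d008331 with 17.3 in −N, 7.87 in +NO3- and 1.01 in +NO3- + cPTIO (17.1-fold) and Zm00001d051938 with 6.403 in −N, 1.01 in +NO3- and 1.08 in +NO3- + cPTIO (5.91-fold). The caffeoylshikimate esterase gene Zm00001d009907 was higher at 5.75 in −N, 17.04 in +NO3- and 19.4 in +NO3- + cPTIO, and phenylalanine ammonia-lyase (Zm00001d017279) at 6.61 in −N, 2.71 in +NO3- and 5.81 in +NO3- + cPTIO was within 2-fold. Of 18 transmembrane transport genes, 3 were higher, none was lower and 15 were within 2-fold, with log2 ratios from −0.52 to 0.99. The higher genes were Zm00001d052435 (chromosome 4, 189981670 to 189987040) with 2.67 in −N, 0.997 in +NO3- and 109.8 in +NO3- + cPTIO (41.1-fold), Zm00001d033517 with 2.67 in −N, 0.689 in +NO3- and 25.6 in +NO3- + cPTIO (9.58-fold) and an ABC transporter of the B type (Zm00001d043762) with 6.63 in −N, 3.13 in +NO3- and 39.1 in +NO3- + cPTIO (5.89-fold). In all 18 genes, these 3 included, +NO3- was the lowest value, an order by which their cluster had been chosen.

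Genes past 2-fold were spread over all chromosomes. The share that was higher ran from 7.51% on chromosome 10 to 9.19% on chromosome 3, and the share that was lower from 8.27% on chromosome 5 to 10.3% on chromosome 9. Next neighbours shared a direction somewhat more often than the overall shares. The following gene was also higher for 12.8% of the higher genes and lower for 8.51%, and for 12.3% of the lower genes it was also lower and for 7.35% higher. Without the genes that share a locus, the same-direction figures were 12.5% and 12.7%.

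Runs of at least 4 genes past 2-fold in one direction numbered 7, counting neighbours among the genes that entered and at any distance. With neighbours required to lie within 100 kb there were 5. The longest covered 8 higher genes on chromosome 8 from 9350133 to 10008150. It included 3 of the polysaccharide binding genes (Zm00001d008467, Zm00001d008468 and Zm00001d008488), but 5 of the 8 share a locus with each other. Zm00001d008477, Zm00001d008478 and Zm00001d008479 have 1 locus and Zm00001d008488 and Zm00001d008489 another, so the run holds fewer loci than identifiers. The single genes except Zm00001d008488 and Zm00001d008477 (3.66 in −N, 9.05 in +NO3- and 8.01 in +NO3- + cPTIO) stayed below 3 RPKM. Those low genes were below 1 RPKM in −N and entered only through +NO3- + cPTIO, so they could not have counted as lower. On chromosome 4, 5 higher genes from 29894575 to 30252602 (Zm00001d049418, Zm00001d049419, Zm00001d049428, Zm00001d049437 and Zm00001d049438) were all under 0.4 RPKM in −N and between 1.03 and 2.64 in +NO3- + cPTIO. All 5 therefore entered only through +NO3- + cPTIO, and they too could not have counted as lower. The strongest run lay on chromosome 3 from 220677999 to 220827409. There Zm00001d044156 had 0.739 in −N, 0.4096 in +NO3- and 67.4 in +NO3- + cPTIO, Zm00001d044157 23.6 in −N, 12.2 in +NO3- and 72.7 in +NO3- + cPTIO, Zm00001d044159 6.86 in −N, 3.76 in +NO3- and 277 in +NO3- + cPTIO and Zm00001d044162 0.5198 in −N, 0.338 in +NO3- and 3.27 in +NO3- + cPTIO. All 4 had their smallest value in +NO3-, and together they held 31.7 RPKM in −N and 420.4 in +NO3- + cPTIO. Zm00001d044156 and Zm00001d044162 were below 1 RPKM in −N and entered only through +NO3- + cPTIO, so they could not have counted as lower.

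Of the runs that were lower, the clearest was a row of peroxidase genes on chromosome 7 from 174364089 to 174455529. Zm00001d022281 had 9.54 in −N, 3.04 in +NO3- and 0.206 in +NO3- + cPTIO, Zm00001d022282 57.5, 22.3 and 0.713 in the same order, Zm00001d022283 62.7, 6.84 and 18.4, and Zm00001d022284 9.49 in −N, 3.59 in +NO3- and 0.891 in +NO3- + cPTIO. Together they had 139 RPKM in −N, 35.8 in +NO3- and 20.2 in +NO3- + cPTIO. All of them except Zm00001d022283 were below 1 RPKM in +NO3- + cPTIO, so they could not have counted as higher. The 8 peroxidase activity genes of this chromosome lie within 256145 bp, and 5 of them were lower, one (Zm00001d022290) was higher and 2 were within 2-fold. As near-identical copies can share reads, the division among such genes is uncertain. A run of 5 genes on chromosome 2 from 34929926 to 35037644 (Zm00001d003183 to Zm00001d003187) had 55.3 RPKM in −N and 15.0 in +NO3- + cPTIO in sum, most of it in Zm00001d003186 (31.2 in −N, 19.5 in +NO3- and 11.1 in +NO3- + cPTIO). The 2 runs on chromosome 9 were weaker. From 138286673 to 138454244, Zm00001d047657, Zm00001d047659, Zm00001d047661 and Zm00001d047662 were lower at log2 ratios from −2.58 to −1.29, and from 152802585 to 152921225, Zm00001d048229, Zm00001d048230, Zm00001d048233 and Zm00001d048234 at −1.86 to −1.11. On chromosome 2, Zm00001d003183, Zm00001d003184 and Zm00001d003185 were below 1 RPKM in +NO3- + cPTIO and could not have counted as higher. The same held on chromosome 9 for Zm00001d047657, Zm00001d048230 and Zm00001d048234. Runs of exactly 3 genes were as common among higher as among lower genes, with 26 each.

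**Figure D5:**
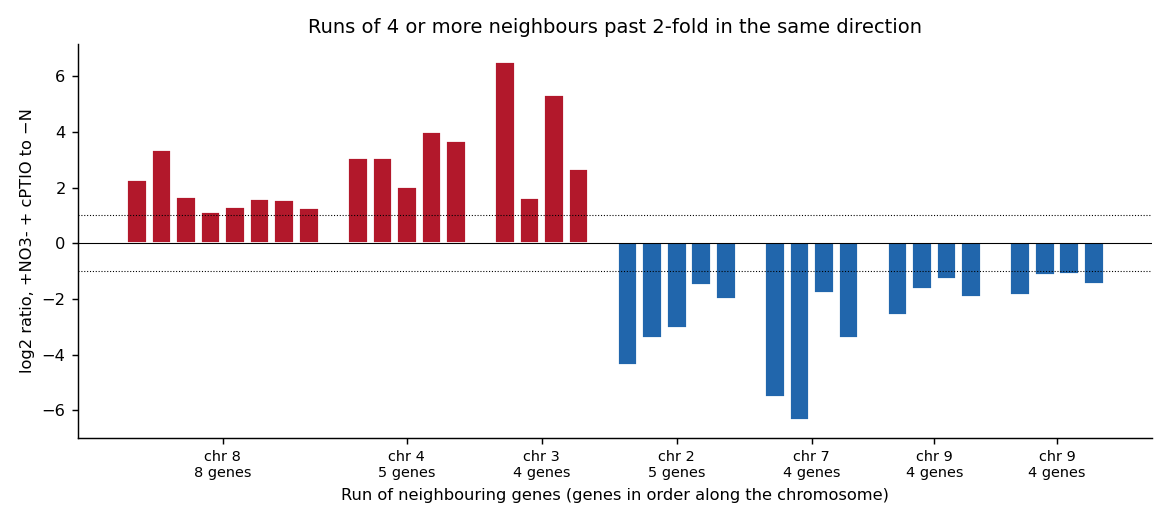
Bars give the log2 ratio of +NO3- + cPTIO to −N for each gene of the 7 runs of at least 4 neighbouring genes past 2-fold in the same direction, in order along the chromosome, with dotted lines at 1 and −1. The chromosome 3 run reaches 6.51 and the peroxidase run on chromosome 7 reaches −6.33.

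Identifier classes differed in how often a gene was past 2-fold. Genes with Zm00001d identifiers were past it in 17.0% of cases, against 46.8% of the 365 genes with ENSRNA identifiers and 17 of the 24 microRNA genes. Of the 820 genes of any class with a locus under 500 bp, 49.5% were past 2-fold. The part of locus length in the shares by class was not tested. Of 199 small nucleolar RNAs 52 were higher and 49 lower, with a median log2 ratio of 0.06, so that they scattered in both directions. Of the microRNA genes 22 share a locus with another identifier. After summing per locus, 4 of 23 loci were higher, 10 lower and 9 within 2-fold, beside 8.33% higher and 9.21% lower of all genes. Many of these calls rest on a 0, for which no ratio exists. The loci of zma-MIR156a, zma-MIR156k, zma-MIR160b, zma-MIR160d, zma-MIR162, zma-MIR169e and zma-MIR393a were listed at 0 in +NO3- + cPTIO, with at most 9.79 RPKM in −N. The locus of zma-MIR399e was listed at 0 in −N. The locus of zma-MIR396b and zma-MIR396h had 1.69 RPKM in −N, 8.83 in +NO3- and 11.9 in +NO3- + cPTIO, and that of zma-MIR159a 28.7, 21.1 and 11.3. The values stand for reads assigned to the precursor locus.

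From the organelles, 43 of 144 mitochondrial and 6 of 73 plastid genes entered. Of the mitochondrial genes 1 was higher and 6 were lower, a share past 2-fold of 16.3% beside 17.5% of all genes, and 4 of the 7 were group II introns. The largest difference was that of a ribosomal RNA fragment (ENSRNA049457201), with 689 RPKM in −N, 1145 in +NO3- and 435 in +NO3- + cPTIO, within 2-fold. The plastid genes that entered, taken as a sign of green tissue, summed to 12.4 RPKM in −N and 6.52 in +NO3- + cPTIO. Without the intron ENSRNA049479657, listed at 6.89 in −N and 0 in +NO3- + cPTIO, the other 5 summed to 5.52 and 6.52, so that the direction rested on that one gene.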

How the data were processed

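The authors trimmed reads with Trimmomatic 0.33, mapped them to the B73 AGPv4 assembly with TopHat2 2.0.13 and estimated expression with Cufflinks 2.2.1 (versions from the submitters' processing notes). The deposited values are RPKM, 1 per gene and condition, with quartile normalization by the authors. No column per library or of the authors' comparisons was used, and 0 per-sample columns were left over. Depth per library is unknown from the table, and no interval or test was made. Ratios were computed without a pseudocount (Python 3.11.15, pandas 2.3.3, numpy 2.4.6, matplotlib 3.10.9), for genes that reached an RPKM of 1 in one condition or the other. A gene counted past 2-fold, or when listed at 0 in one condition. The steps were tested on simulated data.

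Named genes were the 10 highest and 10 lowest ratios with at least 10 RPKM in one condition, the 5 largest values opposite a 0 and the 10 largest RPKM differences in each direction, genes the study names, members of its listed groups, and runs of at least 4 neighbours. Groups of more than 6 genes are summarised with examples. Genes and lists were chosen with earlier results of these data known. Identifiers are named from the study's tables alone, and the RefSeq table used here matched no Zm00001d identifier. Alternatives were other RPKM minimums, pseudocounts, rescalings, fold limits, Zm00001d identifiers only and, added after seeing the data, summed values of genes with an identical locus.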

Additional observations from a re-analysis of the deposited data

How the results depend on the processing

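The number of genes past 2-fold followed the limits set. It was 6872 (3352 higher, 3520 lower) with an RPKM minimum of 0.1, 9964 (4731 and 5233) with none and 2096 (1006 and 1090) with 5. With a pseudocount of 1 it was 2482, of which 1259 lower. At 1.5-fold it was 7338 and at 4-fold 1261 (706 and 555). Genes listed at 0 in one condition numbered 1279, 3778 and 86 with a minimum of 0.1, none and 5, and 74 among Zm00001d identifiers. The runs of neighbours numbered 76 at 1.5-fold and 3 with a minimum of 5. A pseudocount of 0.1, both rescalings and summing identical loci left each count of genes past 2-fold within 1.5 times, and the median log2 ratio stayed between −0.08 and −0.02. Of 201 named genes with a ratio, 73 moved by more than 1.5-fold with a pseudocount of 1 and none with a rescaling, and no gene past 2-fold changed direction in these settings. Beyond the settings' own construction, the cause was not tested. No paired analysis was possible because the table has 1 value per condition, and no replicate could be left out for the same reason. The depth behind an RPKM is unknown, so the precision of ratios at low values cannot be given.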

Other observations

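Further groups of the study's pathway table were examined whole, after their values had been seen, and no hypothesis was tested on them. The adenylyl-sulphate kinase 3 gene (Zm00001d048785), which phosphorylates activated sulfate, had an RPKM of 1.53 in −N, 5.59 in +NO3- and 25.8 in +NO3- + cPTIO, 16.8-fold above −N. Ferredoxin (Zm00001d038291, 10.1 in −N, 37.2 in +NO3- and 15.99 in +NO3- + cPTIO) and its reductase (Zm00001d034345, 52.3 in −N, 110.2 in +NO3- and 101 in +NO3- + cPTIO), which feed electrons to nitrite reductase, were within 2-fold and highest in +NO3-. In carbon metabolism, a malate synthase gene (Zm00001d003247) had 16.2 in −N, 41.1 in +NO3- and 141 in +NO3- + cPTIO (8.68-fold higher) and a phosphoenolpyruvate carboxykinase gene (Zm00001d047893) 91.7 in −N, 17.4 in +NO3- and 16.3 in +NO3- + cPTIO (5.62-fold lower). Glutamate decarboxylase (Zm00001d031749), which makes gamma-aminobutyrate, had 20.8 in −N, 9.13 in +NO3- and 1.73 in +NO3- + cPTIO (12.1-fold lower) and ornithine decarboxylase (Zm00001d021321), which starts polyamine synthesis, 1.51 in −N, 0.264 in +NO3- and 0.0251 in +NO3- + cPTIO (59.98-fold lower). The size of the latter ratio is loosely fixed, as its log2 value of −5.91 became −1.29 with 1 added to both values.

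Both calmodulin genes, for calcium sensors, were higher, Zm00001d033980 with 3.19 in −N, 6.86 in +NO3- and 8.08 in +NO3- + cPTIO and Zm00001d048913 with 0.333 in −N, 2.405 in +NO3- and 1.47 in +NO3- + cPTIO. Of 5 endoglucanase genes 2 were higher and 1 lower, and the lower one (Zm00001d026605) had 6.12 in −N, 2.901 in +NO3- and 0.0721 in +NO3- + cPTIO, 84.96-fold below −N. Its log2 ratio of −6.41 became −2.73 with 1 added to both values. A chitinase gene (Zm00001d043988) had 17.3 in −N, 68.9 in +NO3- and 53.05 in +NO3- + cPTIO, and another (Zm00001d027524) had 7.82 in −N, 46.7 in +NO3- and 8.38 in +NO3- + cPTIO, so that the latter was near −N with cPTIO. Of 3 genes of fatty acid synthesis and elongation, the acyl-CoA synthetase gene Zm00001d045295 was higher at 14.8 in −N, 7.13 in +NO3- and 42.9 in +NO3- + cPTIO. The 2 small heat shock protein genes were within 2-fold.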
